A study of Mus musculus with 6 samples.

Results

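Small nucleolar RNA genes were taken from a table of gene expression as the rows whose Ensembl identifier has a mouse symbol beginning with Snora, Snord or Scarna and whose value lay above 0 in at least 1 of 6 libraries. Of 56750 rows in the table, 113 carried such a symbol, and 24 of these lay above 0 in at least 1 library: 18 Snora, 3 Snord and 3 Scarna genes. The other 89 rows were listed at 0 in every library. A further 37 matching symbols of the name table had no row. Since the members were chosen by their own TPM values in these 6 libraries, counts of genes above 0 are given as a description.

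The libraries were made from LSK cells, the lineage-negative, Sca1-positive and cKit-positive fraction of bone marrow that contains hematopoietic stem and progenitor cells, sorted from C57BL/6 mice. The DIC group (3 libraries) came from mice given 2.5% dextran sulfate sodium (DSS) for 5 days, which injures the colon lining and produces colitis, and the control group (3 libraries) from mice labelled control. The labels give 3 mice per group, and age and sex are not given in the sources used here. From 10 ng of total RNA, cDNA was made with the SMART-Seq v4 Ultra Low Input kit, which primes on poly(A) tails, and sequenced as pairs of 150 bp reads. The libraries are called DIC 1 to 3 and control 1, 2 and 4 after the table's columns. Values are TPM, a measure in which reads are divided by gene length and scaled so that each library has the same total. TPM keeps no sequencing depth, so the number of reads behind a value is unknown and no counting interval was computed.

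Small nucleolar RNAs are short noncoding RNAs that work inside protein complexes in the nucleolus. Box C/D RNAs (Snord) guide methylation of ribose in ribosomal RNA, box H/ACA RNAs (Snora) guide conversion of uridine to pseudouridine, and a few of either class act in cleavage of the ribosomal RNA precursor. The small Cajal body RNAs (Scarna) do the same for spliceosomal RNAs. Most mammalian members lie in introns of host genes and are trimmed out of the spliced intron. The mature forms lack the poly(A) tail of messenger RNA. Many act in ribosome production, which every growing cell needs, so a value of 0 is described here as listed at 0 and not as absence of the RNA.

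Sequences of 5 genes above 0 and 2 rows at 0 are shown in the DNA alphabet, 5′ to 3′, as GENCODE release M21 of GRCm38 gives the transcripts, since they carry the box elements and the lengths on which the results turn. Capitals mark the ACA near the 3′ end of H/ACA RNAs, or the TGATGA of the C box and the CTGA of the D box in C/D RNAs. Snora9 was the single member called between the groups. The 2 Snora43 rows differ in length and in whether they were above 0. Snora81 was above 0 in every library and carries no ACA within reach of its annotated end. Snord118 and Snord22 are C/D genes above 0, and Snord78 is a shorter C/D gene at 0 inside the abundant host Gas5.
Snora9: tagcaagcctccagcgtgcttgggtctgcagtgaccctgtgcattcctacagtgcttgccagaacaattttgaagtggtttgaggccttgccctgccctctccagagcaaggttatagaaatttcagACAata
Snora43 (row at 0): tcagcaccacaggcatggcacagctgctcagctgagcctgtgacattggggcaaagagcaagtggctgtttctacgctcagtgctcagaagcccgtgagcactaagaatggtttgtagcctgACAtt
Snora43 (row above 0): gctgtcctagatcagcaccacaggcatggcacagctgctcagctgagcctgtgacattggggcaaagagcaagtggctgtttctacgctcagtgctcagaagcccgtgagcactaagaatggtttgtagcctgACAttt
Snora81: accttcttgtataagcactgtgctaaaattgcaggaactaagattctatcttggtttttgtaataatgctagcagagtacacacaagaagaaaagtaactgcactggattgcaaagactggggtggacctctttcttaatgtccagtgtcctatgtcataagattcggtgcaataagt
Snord118: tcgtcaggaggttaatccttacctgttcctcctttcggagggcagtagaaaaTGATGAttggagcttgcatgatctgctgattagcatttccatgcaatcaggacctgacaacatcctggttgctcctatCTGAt
Snord22: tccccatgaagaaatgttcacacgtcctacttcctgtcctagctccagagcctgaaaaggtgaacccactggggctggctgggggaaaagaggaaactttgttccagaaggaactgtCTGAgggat
Snord78: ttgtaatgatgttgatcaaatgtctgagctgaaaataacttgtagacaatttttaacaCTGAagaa

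The box elements followed the name classes in most rows, with matches across classes. An ACA followed by at most 6 bases was found in 17 of 18 Snora members (94.4%) and in 18 of 19 Snora rows at 0 (94.7%). The same element occurred in 11.4% of 18942 other annotated transcripts of 64 to 414 bases. Snora81 was the member without it. It also occurred in 6 of 67 Snord rows at 0 (8.96%). A CTGA within the last 20 bases was present in all 3 Snord members, all 3 Scarna members and 65 of 67 Snord rows at 0 (97.0%), against 10.2% of the other transcripts. The CTGA was also present in 1 of 18 Snora members (5.56%) and in 4 of 19 Snora rows at 0 (21.1%). A TGATGA beginning within the first 31 bases was present in 46 of 67 Snord rows at 0 (68.7%), against 1.47% of the other transcripts. It was present in 1 of 3 Snord members, Snord17, and in 2 of 3 Scarna members. In Snord118 the TGATGA begins at base 53 and so lies outside the window. Only the transcript strand was searched, and TGATGA and CTGA share letters and may overlap. A match describes these letters alone.

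The classes differed in how many rows were above 0, and so did their annotated lengths. Among Snord rows 3 of 70 (4.29%) were above 0, and these rows had a median length of 78 bases. Among Snora rows 18 of 37 (48.6%) were above 0, with a median length of 132 bases. Of the 6 Scarna rows 3 (50.0%) were above 0. The shortest member, Snord22, had 126 bases, and this length was taken as a boundary after the values were seen. That 0 of the 68 shorter rows were above 0 therefore holds by construction. Of the 45 rows of 126 bases or more, 24 were above 0 (53.3%). Over all genes of the table, 2.36% of rows of 100 to 125 bases were above 0, so 126 bases is no general limit. Within the longer rows the classes lay closer, with 3 of 5 Snord rows (60.0%), 18 of 36 Snora rows (50.0%) and 3 of 4 Scarna rows (75.0%) above 0. All 9 rows of 150 bases or more were above 0, and the longest row at 0 was Snord15a, with 148 bases. Whether box class or length accompanies presence more closely cannot be told apart for the short rows, since 65 of the 68 rows under 126 bases were Snord genes.

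**Figure D1:**
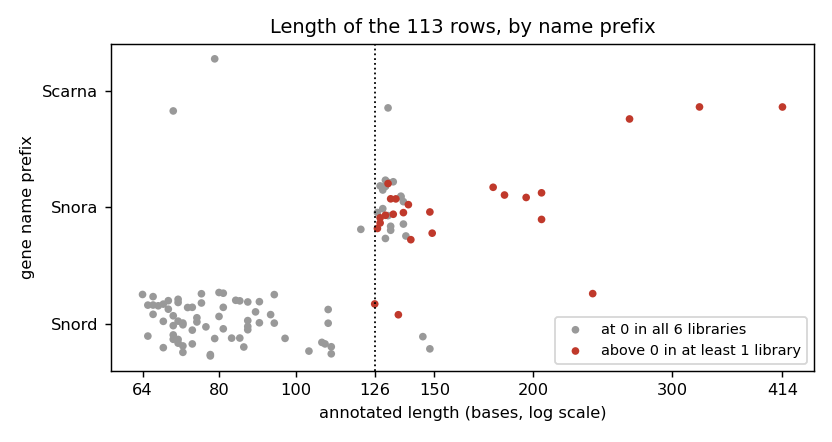
Annotated length in bases (log axis) of the 113 rows with a Snora, Snord or Scarna symbol, by name prefix, with red points for the 24 rows above 0 in at least 1 library and grey points for the 89 rows at 0. Points are spread vertically for legibility. The dotted line stands at 126 bases, the length of the shortest row above 0. Every red point therefore lies on or to the right of it.

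The 2 rows named Snora43, an H/ACA RNA, both lie above the boundary and differ in presence within nearly one sequence. The shorter row, of 127 bases, lies whole within the longer one, of 139 bases, and was listed at 0 in every library. The longer row was above 0 in all 6 libraries, at 7.82, 11.2 and 8.08 TPM in DIC 1, 2 and 3 and at 11.9, 12.0 and 11.7 TPM in control 1, 2 and 4. Reads from the shared stretch could belong to either row, so the value describes the pair.

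Most members were above 0 in a minority of libraries, and the genes that were present changed from library to library. Of 144 values 63 were above 0 and 56.2% were at 0. A total of 8 members were above 0 in 1 library, 5 in 2, 6 in 3, 1 in 4, 1 in 5 and 3 in all 6. The 24 genes fell into 19 different patterns of presence over the libraries. Each library held between 8 and 13 members above 0, with 12, 10 and 13 in DIC 1, 2 and 3 and 10, 10 and 8 in control 1, 2 and 4. By group, 7 members were above 0 in DIC libraries alone, 4 in control libraries alone and 13 in both groups. Over all genes, DIC libraries had more rows above 0 than controls, at 21522 to 22720 against 20474 to 21449. The share of all rows above 0 in 1 group alone is not given, so 7 against 4 is a description. Every library had at least 1 member seen nowhere else: Snora52 in DIC 1, Snora3 and Scarna6 in DIC 2, Snora23 and Snord17 in DIC 3, Snora62 in control 1, Snora20 in control 2 and Snord22 in control 4.

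A complete split between the groups was rare. Snora9 was above 0 in all 3 controls and at 0 in all 3 DIC libraries, and 0 members showed the reverse. Over the 28869 rows of the table above 0 somewhere, 52 (0.18%) had the first pattern and 177 (0.613%) the second.

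**Figure D2:**
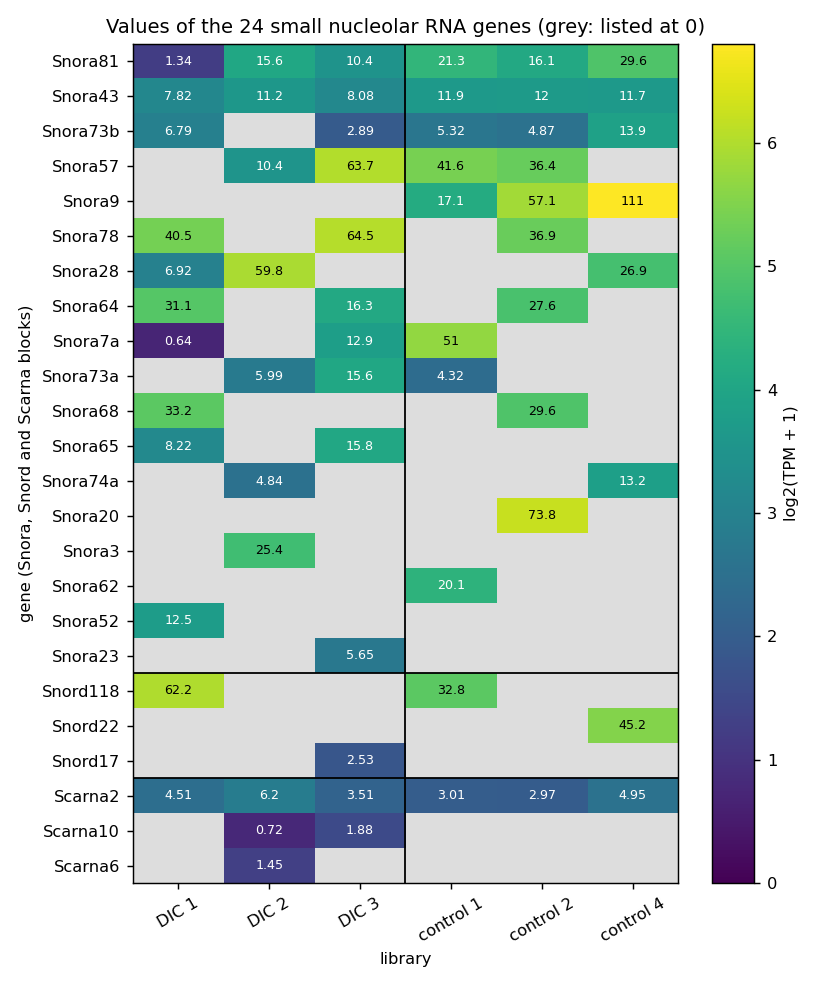
TPM of the 24 members (rows, in blocks of Snora, Snord and Scarna) in the 6 libraries (columns, DIC left of the vertical line), coloured by log2(TPM + 1), with grey cells for values listed at 0. Snora81, Snora43 and Scarna2 are filled in every column, and Snora9 is filled in the 3 control columns alone.

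Differences between DIC and control were tested on log2(TPM + 1) with limma over 13496 genes that reached 1 TPM in at least 3 libraries, with Benjamini-Hochberg adjustment over all of them. Fold changes on this scale understate changes of low genes, and ± after one is its standard error. The labels say no more on replication than 3 mice per group, so a p-value here reflects the spread among libraries, which may be technical. Of the 24 members 10 passed the filter and 14 were not tested. Among those tested 1 was lower in DIC and 0 were higher at an adjusted p of 0.05, where 0.0222% of all tested genes were lower and 0.037% higher. At an unadjusted p of 0.05 the count was also 1 of the 10, where 20.2% of all tested genes passed, and limma was the one tool run. Without overlap between the groups, 3 tested members were lower in DIC and 0 higher, beside 18.4% and 7.08% of all tested genes. The 10 fold changes were divided into 5 negative and 5 positive, where 58.5% of all tested genes were negative, and their median was -0.03 against -0.08 for all tested genes. One tested member, Snora9, had passed the filter through 1 group alone, so these 10 are not a fair sample of the 24. In bulk libraries, fewer cells of a type and less RNA per cell cannot be told apart.

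Among the H/ACA genes, Snora9 was the one called. It was listed at 0 in DIC 1, 2 and 3 and at 17.05, 57.1 and 111 TPM in control 1, 2 and 4. The controls themselves spanned a wide range, and no fold is given against a group at 0. The limma adjusted p was 0.046, on a gene that could pass the filter only through the controls and therefore had to differ. The adjusted p lay between 0.00751 and 0.219 over 14 alternative settings and stayed under 0.05 in 6 of them. It was 0.185 without DIC 1, 0.0712 without DIC 2, 0.147 without DIC 3 and 0.144 without control 4, and 0.216 with a pseudocount of 5.

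Snora9 lies inside Snhg15, a noncoding host gene named for it, within an intron of 2 and an exon of 1 of 4 annotated transcripts. Snhg15 stood at 42.7, 60.9 and 54.7 TPM in DIC 1, 2 and 3 and at 122, 60.7 and 181 TPM in control 1, 2 and 4. The groups overlapped through control 2, whose Snhg15 lay at the DIC level while its Snora9 stood at 57.1 TPM. The log2 fold change of the host was -1.06 ± 0.37 with a limma adjusted p of 0.214. Where a read falls on an exon that both genes share, their values cannot be told apart.

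Snora81, an H/ACA gene in the translation factor gene Eif4a2, was above 0 everywhere. It stood at 1.34, 15.6 and 10.4 TPM in DIC 1, 2 and 3 and at 21.3, 16.15 and 29.6 TPM in control 1, 2 and 4. Every control lay above every DIC library, with DIC 2 and control 2 next to each other. The log2 fold change was -1.57 ± 0.68, with a limma adjusted p of 0.254, and it was -0.72 without DIC 1, the library at 1.34 TPM. Eif4a2 itself stood at 105, 87.0 and 113 TPM in DIC and at 132, 108 and 172 TPM in control 1, 2 and 4. The host overlapped between the groups, with a log2 fold change of -0.41 ± 0.19 and a limma adjusted p of 0.284. A second small RNA in Eif4a2, the C/D gene Snord2 of 69 bases, was at 0 in every library.

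**Figure D3:**
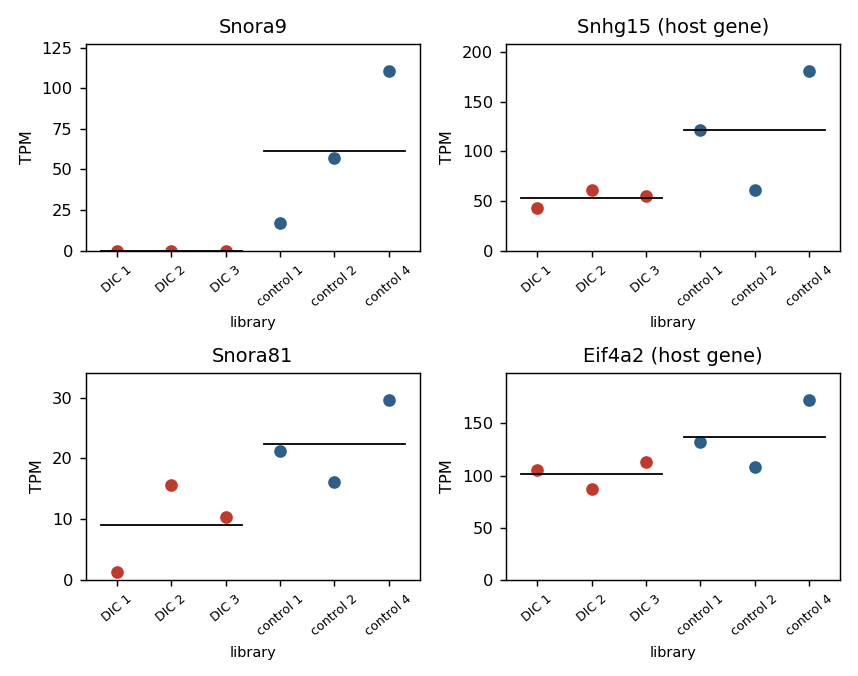
TPM by library of Snora9 and Snora81 (left) and of their host genes Snhg15 and Eif4a2 (right), in red for DIC and blue for control, with a horizontal line at each group's mean. Snora9 lies at 0 in every DIC library, and Snhg15 of control 2 lies at the level of the DIC libraries.

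Snora43, whose values are given above, was the third member without overlap. Its controls lay within 0.31 TPM of each other, and DIC 2 came closest to them. The log2 fold change was -0.37 ± 0.18 and the limma adjusted p 0.282, so the difference did not pass the threshold. No annotated gene of the same strand contains it.

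The other H/ACA genes with high mean values were present in some libraries of both groups. Snora57 was listed at 0, 10.4 and 63.7 TPM in DIC 1, 2 and 3 and at 41.6, 36.4 and 0 TPM in control 1, 2 and 4. Snora78 stood at 40.55, 0 and 64.5 TPM in DIC and at 0, 36.9 and 0 TPM in control. Snora28 stood at 6.92, 59.8 and 0 TPM in DIC and at 0, 0 and 26.9 TPM in control. In all 3 genes the groups overlapped and each group held both zeros and values above 10 TPM. Snora64 stood at 31.1, 0 and 16.3 TPM in DIC and at 0, 27.6 and 0 TPM in control, in the same 3 libraries as Snora78. The log2 fold changes were -0.37 ± 1.87 for Snora57, 2.06 ± 1.94 for Snora78, 1.37 ± 1.76 for Snora28 and 1.43 ± 1.68 for Snora64, with limma adjusted p of 0.924, 0.567, 0.683 and 0.653. Standard errors above 1.6 on the log2 scale leave room for large differences in either direction. Snora57 reached 1.22 without DIC 1, so its sign rests on single libraries.

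Snora78 and Snora64 both lie within the span of Rps2, which encodes a protein of the small ribosomal subunit. Snora64 lies in an intron of 5 and inside an exon of 1 of the 8 annotated Rps2 transcripts. Snora78 lies on the opposite strand, within Snhg9, and reads of opposite strands cannot be separated with a kit that does not mark strand. Snhg9 stood at 7.31, 14.55 and 0 TPM in DIC 1, 2 and 3 and at 22.0, 13.1 and 9.23 TPM in control 1, 2 and 4. It was at 0 in DIC 3, where Snora78 stood at 64.5 TPM. In every library with Snora78 at 0, Snhg9 was above 0. Rps2 stood at 898, 1130 and 1041 TPM in DIC 1, 2 and 3 and at 1955, 1243 and 1898 TPM in control 1, 2 and 4. It was high in every library, including those in which both small RNAs were at 0.

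Snora20, Snora7a and Snora68 were the remaining H/ACA genes among the 10 members of highest mean, and none of them passed the filter. Snora20, in the chaperonin gene Tcp1, stood at 73.8 TPM in control 2 and at 0 elsewhere. Snora7a, in the ribosomal protein gene Rpl32, stood at 0.64, 0 and 12.9 TPM in DIC and at 51.0, 0 and 0 TPM in control 1, 2 and 4. Snora68 stood at 33.2 TPM in DIC 1 and 29.6 TPM in control 2 and at 0 elsewhere. A mean among the highest could thus come from 1 or 2 libraries.

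Snora73a and Snora73b belong to the H/ACA group that acts in cleavage of the ribosomal RNA precursor, known as U17. They are 96.6% identical (198 of 205 bases), so reads may be divided between them. Snora73a was listed at 0, 5.99 and 15.6 TPM in DIC 1, 2 and 3 and at 4.32, 0 and 0 TPM in control 1, 2 and 4. Snora73b stood at 6.79, 0 and 2.89 TPM in DIC and at 5.32, 4.87 and 13.9 TPM in control. Wherever Snora73a was at 0 its copy was above 0, and in DIC 2 the reverse held. Their log2 fold changes had opposite signs, 1.48 ± 1.10 and -1.40 ± 0.74, with limma adjusted p of 0.464 and 0.326. Both lie within Snhg3, which varied from 159 to 206 TPM over all 6 libraries. These 2 genes, the 6 H/ACA genes described next, Snord22, Snord17, Scarna10 and Scarna6 were named after their values were seen.

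The remaining 6 H/ACA members were each above 0 in 1 or 2 libraries. Snora65, in Rpl12, stood at 8.22 TPM in DIC 1 and 15.8 TPM in DIC 3. Snora74a stood at 4.84 TPM in DIC 2 and 13.2 TPM in control 4. Snora3, in Rpl27a, reached 25.4 TPM in its one library, Snora62, in Rpsa, 20.1, Snora52, in Rplp2, 12.5 and Snora23, in the importin gene Ipo7, 5.65. None of the 6 was tested.

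Of the C/D class, 3 genes were above 0, none of them in more than 2 libraries. Snord118, known as U8, acts in maturation of the large-subunit ribosomal RNAs and is transcribed from its own promoter. It stood at 62.2 TPM in DIC 1 and 32.8 TPM in control 1 and at 0 in the other 4 libraries. Snord22, known as U22, acts in maturation of the small-subunit ribosomal RNA and lies in Snhg1. It stood at 45.2 TPM in control 4 alone, where Snhg1 was at 167 TPM, and at 0 in control 1, where Snhg1 was at 129 TPM. Snord17, in the sorting nexin gene Snx5, stood at 2.53 TPM in DIC 3 alone, and with 238 bases it was the longest of the Snord rows.

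Among the Cajal body RNAs, Scarna2 was above 0 in every library. It guides methylation of the U2 spliceosomal RNA and, at 414 bases, was the longest member. It stood at 4.51, 6.20 and 3.51 TPM in DIC 1, 2 and 3 and at 3.01, 2.97 and 4.95 TPM in control 1, 2 and 4. The groups overlapped, with means of 4.74 ± 1.36 and 3.64 ± 1.13 TPM (SD, n = 3). The log2 fold change was 0.31 ± 0.26 and the limma adjusted p 0.530. Scarna10, in the condensin gene Ncapd2, stood at 0.72 TPM in DIC 2 and 1.88 TPM in DIC 3. Scarna6, in the autophagy gene Atg16l1, stood at 1.45 TPM in DIC 2 alone. With Snord17 these were the members with the lowest peak values, closest to the limit of 0. The matching rows outside it were all listed at 0 at the deposited 2 decimals.

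Host levels of the members were compared with those of the rows at 0. A host, meaning an annotated gene of the same strand that contains the small RNA and is no small RNA itself, was found for 20 of 24 members. Their hosts had a median mean level of 115 TPM. Of the rows at 0, 84 had a host, and the median there was also 115 TPM, with a maximum of 1787. The 65 of these rows under 126 bases had a host median of 120 TPM, and the 19 rows of 126 bases or more, in the members' range of lengths, had one of 67.2 TPM, below that of the members. Across the 20 members, the mean level of the member and that of its host had a Spearman correlation of 0.329, given as a description over values that share 6 libraries. Abundant hosts carried several C/D genes at 0 each. Gas5, a noncoding host, averaged 822 TPM while Snord47, Snord78 and Snord80, of 66 to 81 bases, were all at 0. Rpl23a averaged 1213 TPM with 3 rows at 0, and Rpl13a averaged 707 TPM with 3 rows at 0. Of the 20 members with a host, 11 lie inside an exon of at least 1 host transcript and all 20 within an intron of at least 1. Reads of an unspliced or alternative host transcript would fall on the same bases, and their share in a member's value was not tested.

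Over all genes of the table, presence rose with annotated length. Of 1488 rows under 100 bases 2 were above 0 (0.134%). The share was 2.36% of rows of 100 to 125 bases, 6.84% at 126 to 149, 7.07% at 150 to 199 and 23.1% at 200 to 499 bases, and it reached 83.1% at 2000 bases or more. Of the rows above 0, those in a single library made up 44.4% at 126 to 149 bases and 9.79% at 2000 bases or more. Of the members 33.3% were in a single library and 12.5% in all 6, where rows of 126 to 149 bases had 6.35% in all 6 and rows of 500 to 999 bases 32.4% in a single library and 26.3% in all 6. A further 987 rows annotated as small nucleolar or Cajal body RNAs under other names had 43 above 0 (4.36%), of which 53.5% were in a single library.

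**Figure D4:**
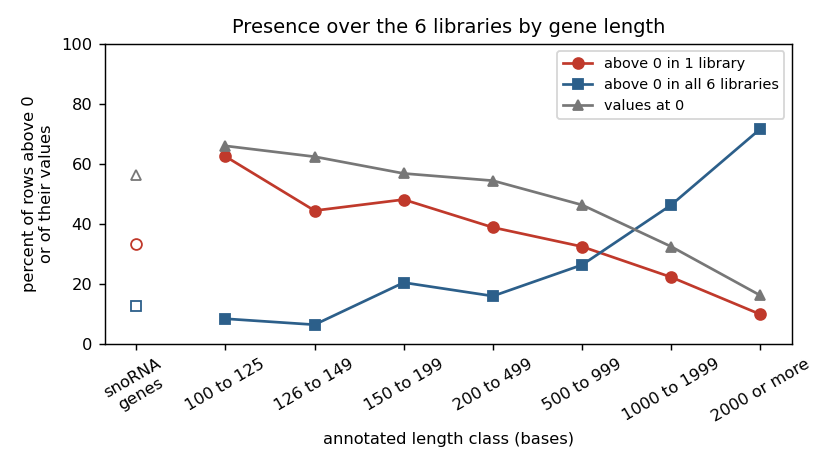
Percent of rows above 0 that were above 0 in 1 library (red circles) or in all 6 (blue squares), and percent of their values at 0 (grey triangles), by annotated length class in bases. Open symbols at the left show the 24 members. The class under 100 bases, with 2 rows above 0, is not drawn. The share present in all 6 libraries is 8.33% at 100 to 125 bases and 6.35% at 126 to 149. It is 20.4% at 150 to 199 bases and 15.9% at 200 to 499, and reaches 71.7% at 2000 bases or more.

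When a gene of 100 to 199 bases was above 0, its TPM was high beside that of longer genes. The median value above 0 was 39.7 TPM at 100 to 125 bases, 27.3 at 126 to 149, 14.1 at 150 to 199, 1.28 at 200 to 499, 0.54 at 500 to 999, 0.90 at 1000 to 1999 and 5.87 at 2000 bases or more. The 2 rows under 100 bases had a median of 1.80 TPM. Among the members it was 12.9 TPM and the lowest was 0.64. The median coefficient of variation within a group, over rows above 0, was 1.73 for the members and for the classes from 100 to 199 bases, and 0.255 at 2000 bases or more. For 3 values with a single one above 0 the coefficient is 1.73 by arithmetic. The summed TPM of the members was 216, 142 and 224 in DIC 1, 2 and 3 and 208, 297 and 256 in control 1, 2 and 4. The median member value above 0 was 8.02 to 10.4 TPM in DIC libraries and 18.6 to 28.6 TPM in controls, without overlap, while the number of all genes above 0 was 21522 to 22720 in DIC and 20474 to 21449 in control. As a group, the controls thus had fewer genes above 0 and higher member medians. Each median covers only the members above 0 in that library, so the sets of genes differ. The 7 members above 0 in DIC libraries alone had peaks of 1.45 to 25.4 TPM. The 4 above 0 in control libraries alone had peaks of 20.1 to 111 TPM. The medians therefore do not describe a shift of the same genes, and no such median over all genes is given. Within each group the library with the most genes above 0 had the highest median. These were DIC 3 (22720 genes, 10.4 TPM) and control 2 (21449 genes, 28.6 TPM). The remaining libraries went the other way. DIC 1 (22183 genes) had a median of 8.02 TPM and DIC 2 (21522 genes) of 8.32 TPM. Control 1 (20790 genes) had 18.6 TPM and control 4 (20474 genes) 20.4 TPM. No steady relation within a group is therefore seen. The part of sequencing yield in this was not tested.

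Values of short genes in 1 library stood in whole-number ratios in a minority of pairs. Pairs of rows of the same length with a single annotated transcript of a single exon, from 126 to 149 bases, were compared within a library at the deposited 2 decimals. Of 62 pairs 15 (24.2%) had a ratio within 0.5% of a whole number up to 8, and 7 of the 28 pairs with a member did. The rate expected of unrelated values was not computed. The same rows could pair in several libraries, so the 62 pairs are not independent. Gm14536 and Gm15027 were equal in DIC 2, control 2 and control 4. Snora20 and Snora78 in control 2 stood at 73.80 and 36.90 TPM, a ratio of 2.00. Snord118 and the small nucleolar RNA row Gm23245 in DIC 1 stood at 62.18 and 15.55 TPM, a ratio of 3.999. Snora57 and Gm26132 in DIC 2 were equal at 10.44 TPM. TPM does not give the number of reads behind either value of a pair. The Snora9 values gave no whole ratio, as in control 2, where it stood at 57.12 TPM beside 2 rows at 30.62 TPM, a ratio of 1.86.

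Among rows seen in DIC 1 alone, most values fell with length. There, 11 small RNA rows of 128 to 147 bases were above 0 there and in no other library, at 10.2 to 32.3 TPM, with Snora52 at 12.5 TPM for 137 bases. Their lengths and values had a Spearman correlation of -0.784, a description across rows of 1 library. The row of 128 bases stood at 20.3 TPM and that of 136 bases at 15.0 TPM, a ratio of 1.35 where the lengths have a ratio of 1.06. Division by full length would give the second ratio for equal numbers of reads. The other libraries had 2 to 5 such rows each, and values fell with length in some of them. In DIC 2 they fell from 43.7 TPM at 127 bases to 10.4 TPM at 148. In control 1 they fell from 22.3 TPM at 146 bases to 20.1 TPM at 149. In control 4 they fell from 51.6 TPM at 127 bases to 27.9 TPM at 145, after 45.2 TPM at 126. In DIC 3 the values were 28.5 TPM at 131 bases and 31.9 TPM at 138, without a fall. Control 2 had no steady fall, with 73.8 TPM at 128 bases (Snora20), 30.6 TPM at 133 and 76.7 TPM at 138. Levels of members of different length are therefore not set against each other beyond the choice of genes to name.

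**Figure D5:**
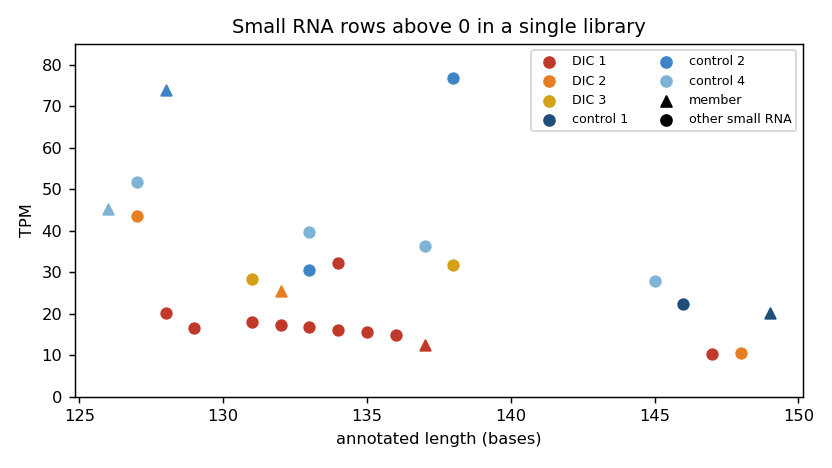
TPM against annotated length in bases for small RNA rows of 126 to 149 bases above 0 in a single library, coloured by library, with triangles for members and circles for other small RNA rows. The red points of DIC 1 run from 20.3 TPM at 128 bases to 10.2 TPM at 147 bases, with a row at 129 bases (16.5 TPM) and a row at 134 bases (32.3 TPM) out of that order.

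The proteins that assemble with these RNAs and the noncoding host genes were read from a list of 42 genes, all tested. At the adjusted threshold 0 were higher and 0 lower, and the lowest limma adjusted p was 0.212. An unadjusted limma p under 0.05 was found for 18 of the 42, a larger share than the 20.2% of all tested genes. Fold changes were negative for 41 and positive for 1, Tgs1, the enzyme that trimethylates RNA caps, with a median of -0.44, where 58.5% of all tested genes were negative. A total of 12 were lower in DIC without overlap and 0 higher, beside 18.4% and 7.08% of all tested genes. Removing a list of neutrophil genes and rescaling moved the median of all genes from -0.08 to 0.10, and there 34 of the 42 were negative with a median of -0.24. Without control 2, 19 of the 42 passed the threshold, all lower, and 8.45% of all tested genes were then lower and 3.93% higher.

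The C/D core proteins were Fbl, the methyltransferase, with Nop56, Nop58 and Snu13. Fbl stood at 112, 113 and 119 TPM in DIC 1, 2 and 3 and at 232, 144 and 209 TPM in control 1, 2 and 4, without overlap, with a log2 fold change of -0.74 ± 0.18 and a limma adjusted p of 0.212. The others had log2 fold changes of -0.40 (Nop56), -0.35 (Nop58) and -0.45 (Snu13), with overlap. The H/ACA core proteins were Dkc1, the pseudouridine synthase, with Nhp2, Nop10 and Gar1. Dkc1 stood at 111, 133 and 134 TPM in DIC and at 217, 141 and 168 TPM in control, without overlap, with a log2 fold change of -0.46 ± 0.18 and a limma adjusted p of 0.229. The others had log2 fold changes of -0.59 (Nhp2, also without overlap), -0.35 (Nop10) and -0.29 (Gar1), with overlap in Nop10 and Gar1. Both cores were above 60 TPM in every library, in contrast to the members' many zeros.

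Of the other pathway genes, 6 had the lowest p. They were the noncoding hosts Zfas1, Gas5, Snhg17 and Snhg15 and the assembly factors Ruvbl1 and Ruvbl2, with log2 fold changes of -0.73, -0.74, -0.91, -1.06, -0.43 and -0.52. All except Snhg15 were without overlap. The 13 noncoding hosts had 13 negative fold changes and a median of -0.73, with 4 lower without overlap. Snord12 in Zfas1 and the 3 rows in Gas5 were at 0 in every library, so they could not be compared with their hosts, and Snora9 in Snhg15 is described above.

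Some markers of other cells differed between the groups without overlap, and others overlapped. The summed TPM of 12 neutrophil genes was 172800 to 238000 in DIC libraries. It was 143200 in control 2, 64120 in control 1 and 53640 in control 4. Of the 12, 8 were higher in DIC without overlap, beside 7.08% of all tested genes. Mpo and Elane, of the same list, overlapped, with log2 fold changes of -0.17 and -0.05, and the other 10 fold changes were positive. The 3 basophil and mast cell genes summed to 273 to 448 TPM in DIC and 841 to 3188 TPM in control, all 3 lower without overlap, beside 18.4% of all tested genes. The 4 erythroid genes summed to 108 to 436 TPM in DIC and 103 to 133 TPM in control, with 4 positive fold changes and 2 genes higher without overlap. The 3 B lineage genes summed to 31.1 to 50.3 TPM in DIC and 39.8 to 100.4 TPM in control, with 3 negative fold changes and none without overlap. Of the 3 macrophage and dendritic cell genes and the 3 T and NK cell genes, 1 each was lower without overlap and none was higher. The 4 genes of the sort and of early progenitors, Kit, Ly6a, Cd34 and Flt3, were above 13 TPM in every library and summed to 192 to 220 TPM in DIC and 195 to 291 TPM in control. Of these 4, 3 had negative fold changes and 1, Kit, a positive one. Cd34 was lower in DIC without overlap, with a log2 fold change of -0.51, and Ly6a, which encodes Sca1, overlapped at -0.71. None of the marker genes was called, and none was at 0 other than Cd3e in DIC 2. The part of these other cells in the members' values was not tested.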

How the data were processed

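The authors deposited 1 table of TPM values per gene, rounded to 2 decimals, for 6 libraries of sorted LSK cells, and each column summed to 1000000 or 1000001. The submitters' processing notes name fastp 0.19.5, HISAT2 2.1.0, StringTie 2.1.2 and the build GRCm39, with no annotation release given in the sources used here. Per the labels' protocols, RNA quality was checked before cDNA synthesis. Column names gave each column's group. Control columns 1 and 4 were used as controls without a sample of their own, because 1 sample is numbered differently in its title and its description. TPM keeps no depth, and no whole-read counts were recovered.

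Symbols, lengths (union of exons), host genes and transcript sequences came from GENCODE M21 on GRCm38, matched by identifier, which gave 52081 of 56750 rows a symbol and a length. Because that build differs from the authors' build, no coordinates are given. Pathway symbols that found no row were Snhg4, Snhg7, Nopchap1 and older names of genes matched under their current name (Nhp2l1, Papd5 and Papd7).

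Genes of at least 1 TPM in at least 3 libraries were fitted as log2(TPM + 1) with limma 3.58.1 (R 4.3.3). The model held group alone and used limma's intensity-dependent prior variance (trend), with two-sided p-values, Benjamini-Hochberg adjustment and a threshold of 0.05. The fit was tested on simulated data. Presence, length, host and ratio comparisons were counts with no test. An exact permutation test over 3 against 3 libraries was not used. The alternatives were other pseudocounts, filters and scalings, limma without a trend, other presence levels and each library left out in turn. Members named in full were those called, split completely between groups or without overlap, the 10 of highest mean, Cajal body RNAs above 0 in at least 4 libraries, and their hosts. The members and lists were chosen with earlier results of these data known.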

Additional observations from a re-analysis of the deposited data

How the results depend on the processing

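The number of called genes depended on the settings. Genes higher in DIC numbered 5, and 2 with a pseudocount of 0.1, 3 with a pseudocount of 5 and 0 without a filter, with 0 to 530 when single libraries were left out. Genes lower in DIC numbered 3, and 0 without a filter and 1 after quantile normalization, with 0 to 1141 when single libraries were left out. The highest counts came without control 2. Both counts were 0 without DIC 1 and without control 4, where 1239 and 1458 genes had an unadjusted limma p under 0.05, and without a filter, where 3241 did. Members called lower numbered 1, and 0 with a pseudocount of 5, without a filter, without a trend and after quantile normalization, with 0 to 1 when single libraries were left out. That member was Snora9 throughout, and members called higher numbered 0 in all 14 settings. Without a library, the lone zeros and values decided signs: Snora57 had a log2 fold change of 1.22 without DIC 1, 0.57 without control 1 and 0.47 without control 2, and Snora28 of -0.11 without DIC 2. Over all libraries left out in turn, Snora57 ran from -2.14 to 1.22 and Snora28 from -0.11 to 2.97. Snora81, Snora43, Snora64, Snora73a, Snora73b, Snora78 and Scarna2 kept their sign in the settings run and were never called. Members above 10 TPM in every library numbered 0, where 3 were above 0 in every library. Of all rows of 126 bases or more, 55.2% were above 0 and 29.7% above 1 TPM. The causes of these shifts were not tested. No paired analysis was possible because the columns and labels tie only 1 shared number, 2, to a library of both groups.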
